A study of Mus musculus with 4 samples.

Results

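The 31 genes described here encode the enzymes of glycolysis, the lactate dehydrogenases, the pyruvate dehydrogenase complex and the citric acid cycle, with the glucose transporter gene Slc2a3. They were chosen by name, and all 31 had a row in each of the 4 libraries, among 31735 gene rows shared by the libraries. The libraries hold ribosome-bound RNA of the rostral pons of adult, untreated Cbln2-EGFP/Rpl10a mice (line NIDA172, Cbln2-TRAP). In translating ribosome affinity purification (TRAP), an antibody against EGFP pulls down ribosomes that carry EGFP-tagged ribosomal protein L10a, and the RNA bound to them is sequenced. All 4 libraries are replicates of 1 group, with no unpurified RNA and no treated group beside them, and what can be described is how high each gene was, how genes compared inside 1 library, and how the replicates differed. The labels name Cbln2 for the transgene but do not say which of the cells make the tag, nor whether a library came from 1 animal or a pool, so every p-value reflects only how far these libraries varied, and that variation may be technical.

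Glycolysis splits glucose into pyruvate in the cytosol and yields a little ATP and NADH. Lactate dehydrogenase interconverts pyruvate and lactate, and the pyruvate dehydrogenase complex carries pyruvate carbon into the mitochondrion's citric acid cycle as acetyl-CoA. Neurons depend on oxidation of glucose and lactate, use GLUT3 (Slc2a3) for glucose uptake, and express the enolase Eno2 and the lactate dehydrogenase Ldhb, while astrocytes are known for Aldoc and endothelial cells for the transporter GLUT1 (Slc2a1).

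The libraries held 12731825 to 21140265 counts over gene rows, and levels are in CPM, that is, per 1000000 of these counts. The row Rn45s, named for the ribosomal RNA precursor, held 1.61% to 24.2% of a library and lowers the CPM of every other gene where it is high (replicates 3 and 4). All 8 neuronal marker genes, Eno2 among them, were at 1 CPM or more in all 4 libraries and summed to 11250 to 24842 CPM. Most of that sum was Snap25 (12388 ± 5731 CPM, SD, n = 4). Beside it, 9 astrocyte genes summed to 483 to 2097 CPM and 8 oligodendrocyte genes to 433 to 2476 CPM. The RNA therefore also held transcripts of glia, and the share of the enzyme counts that came from them was not tested. In such bulk RNA, fewer cells of a type and less RNA per cell cannot be told apart.

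Nearly the whole pathway was present in the ribosome-bound RNA. At 1 CPM or more in all 4 libraries were 30 of the 31 genes, beside 33.5% of all shared gene rows, and Eno1 was the exception. At 100 CPM or more in all 4 libraries were 15 of the 31, beside 1331 of the 31735 rows. The 15 enzyme genes from Hk1 to Ldhb held 0.441 ± 0.109% (SD, n = 4) of the gene counts, and the 15 from Pdha1 to Mdh2, with Mdh1, held 0.265 ± 0.022%. Gapdh alone made up 33.7% of the first sum on average. The first sum was 0.318%, 0.385%, 0.507% and 0.555% in replicates 1 to 4, and with Rn45s left out of the totals 0.323%, 0.392%, 0.669% and 0.612%. On either total it was higher in both later libraries than in both earlier ones.

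Longer transcripts give more reads, so levels of different genes were compared per kilobase (kb) of the gene's merged annotated exons. On that scale the order of the mean levels began with Gapdh at 358 ± 82.1 CPM per kb (SD, n = 4), followed by Mdh1 at 234 ± 59.8, Ldhb at 225 ± 59.6 and Aldoa at 222 ± 82.2. The last 3 did not differ beyond their spread. Eno2, Pkm, Mdh2 and Ogdh came next, at 92.1 ± 34.0, 78.4 ± 33.9, 69.0 ± 28.4 and 65.3 ± 11.3 CPM per kb. At the low end stood Slc2a3, Pfkl and Eno1, at 6.89 ± 2.65, 3.54 ± 3.34 and 1.31 ± 1.18. Among 23129 genes with a length, Gapdh ranked 63, 41, 16 and 20 in replicates 1 to 4, Mdh1 56, 49, 94 and 86, and Ldhb 62, 56, 129 and 66. The merged exons are longer than any single transcript for many genes, 4133 bases against 1420 for Gapdh. Per kb of the longest protein-coding transcript Gapdh stood at 1042 CPM per kb, Aldoa moved to the second place with 417, and Mdh1 and Ldhb followed with 283 and 271.

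**Figure D1:**
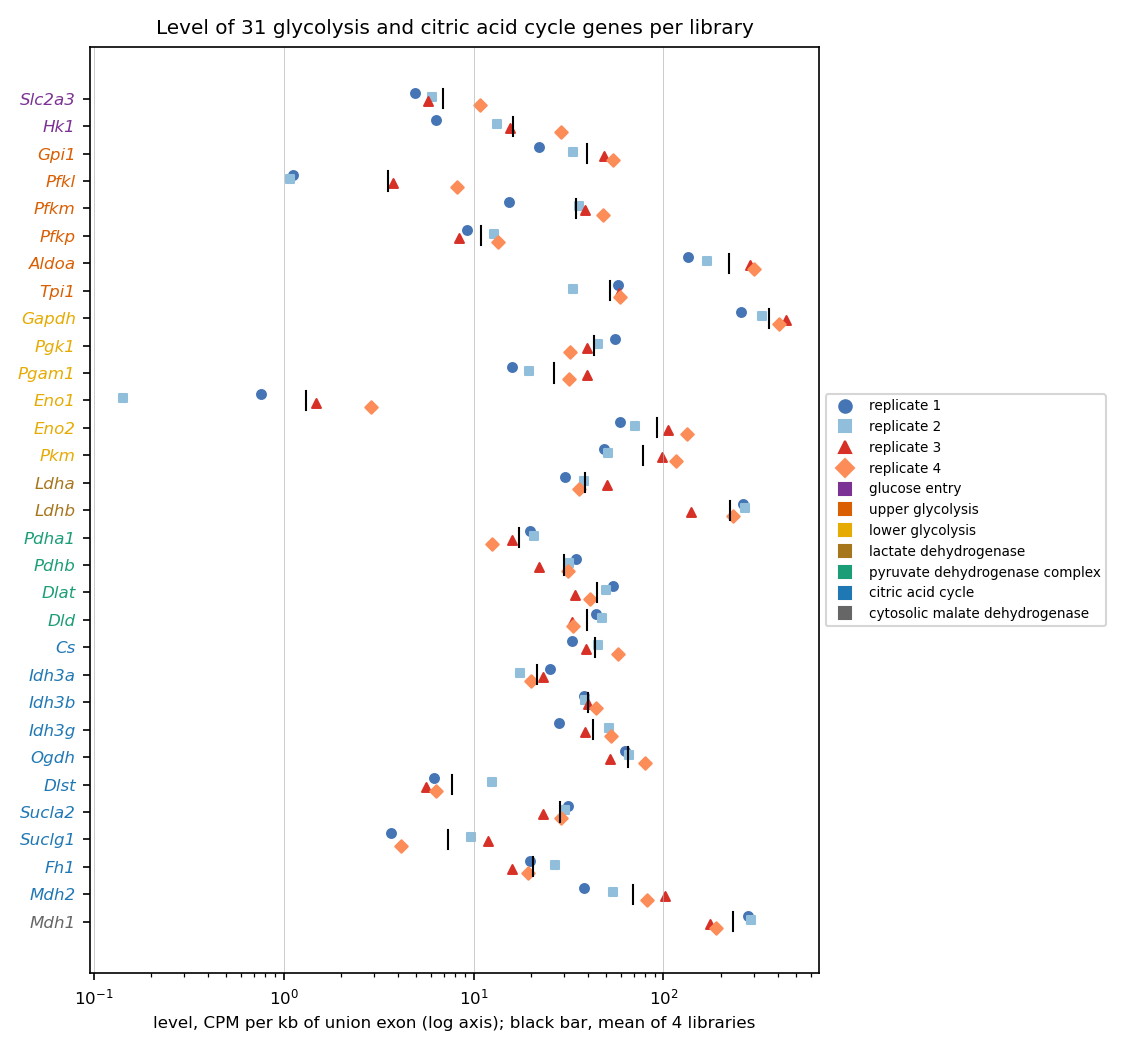
Level of each of the 31 genes in each of the 4 libraries, in CPM per kb of exon on a log axis, with points for replicates and a bar for the mean of 4; gene names are coloured by role. Gapdh, Mdh1, Ldhb and Aldoa lie highest, Pfkl and Eno1 lowest, and for most glycolytic genes replicates 3 and 4 lie to the right of replicates 1 and 2.

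Glucose entry and phosphorylation were represented by low to moderate levels. Slc2a3, which encodes the neuronal glucose transporter GLUT3, was at 35.8, 43.6, 41.9 and 78.3 CPM in replicates 1 to 4. Replicate 4 stood above the other three. Slc2a1, which encodes GLUT1 of the blood-brain barrier and glia, was at 81.3, 127, 65.2 and 90.04 CPM, and per kb it exceeded Slc2a3 in 4 of 4 libraries (log2 ratio of Slc2a3 to Slc2a1 -1.86 ± 0.56). The 6 endothelial marker genes, Slc2a1 among them, summed to 117 to 247 CPM, with Flt1 at 43.4 ± 17.7 and Cldn5 at 0.99 ± 1.41, the latter at 0 counts in replicate 4. The part of these cells in the Slc2a1 level was not tested. Hexokinase traps glucose in the cell as glucose 6-phosphate, and Hk1 was at 53.9, 113, 133 and 248 CPM. Replicate 1 was lowest and replicate 4 highest, at 4.59 times the level of replicate 1. Hk1 made up 94.6 ± 4.20% of the summed CPM per kb of the hexokinase genes, with Hk2 at 4.18 ± 4.28%, and Hk3 and Hkdc1 were at 0 counts in 3 of 4 libraries.

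Gpi1, which turns glucose 6-phosphate into fructose 6-phosphate, was at 143, 215, 315 and 350 CPM. Both later libraries stood above both earlier ones. Phosphofructokinase, the committed and most regulated step of glycolysis, is a tetramer of muscle (Pfkm), platelet (Pfkp) and liver (Pfkl) subunits. Pfkm was at 51.6, 120, 129 and 161 CPM, Pfkp at 124, 172, 113 and 179, and Pfkl at 7.52, 7.20, 25.1 and 54.6. Per kb, Pfkm held 69.3 ± 6.86% of the subunit sum, Pfkp 24.3 ± 8.56% and Pfkl 6.42 ± 4.13%. The minor place of Pfkl held in every library, where its share ran from 2.17% to 11.7%. The order of the other two depended on the length used. Pfkp has 13401 bases of annotated exon, and the log2 ratio of Pfkp to Pfkm was -1.53 ± 0.61 per kb of exon union, -0.09 per kb of the longest transcript and 0.43 without division by length. Pfkp also overlaps Pitrm1, and 82.9% of its 50-base windows were unique to it.

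Aldoa, the aldolase that splits fructose 1,6-bisphosphate, was at 392, 494, 829 and 871 CPM, with no overlap between replicates 1 and 2 and replicates 3 and 4. Aldoc, the brain aldolase known from astrocytes and Purkinje cells, was at 354, 388, 193 and 425 CPM. Aldoa exceeded it per kb in 4 of 4 libraries, but by less than 2 SD (log2 ratio 1.07 ± 0.88), from 0.31 in replicate 1 to 2.25 in replicate 3. Replicate 3, where Aldoc was lowest, was also lowest in the summed astrocyte markers (483 CPM, beside 1354 to 2097 in the others), a list that holds Aldoc. Its part in the ratio was not tested. Tpi1, which interconverts the 2 triose phosphates, was at 159, 92.2, 161 and 163 CPM, with replicate 2 alone low. Such a lone library (set apart by most of the range of the 4 values) was found for Tpi1 and Dlst, and for 7.57% of all genes at 1 CPM in every library.

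In lower glycolysis, where ATP and NADH are made, Gapdh oxidizes glyceraldehyde 3-phosphate and was at 1057, 1365, 1819 and 1678 CPM. Pgk1 makes the first ATP of the pathway and was at 124, 101, 88.4 and 72.6 CPM. Gapdh was higher and Pgk1 lower in both later libraries than in both earlier ones, although Pgk1 overlapped (126, 103, 117 and 80.04 CPM) with Rn45s left out of the totals. Their enzymes act one after the other. Pgam1, the mutase that follows, was at 31.5, 38.8, 78.1 and 62.7 CPM. Its muscle form Pgam2 was at 0.09 to 2.98 CPM, and Pgam1 exceeded it in 4 of 4 libraries (log2 ratio 3.70 ± 0.72). Pkm, pyruvate kinase, was at 243, 255, 489 and 581 CPM, while Pklr, the liver and red cell form, had a mean of 1.14 CPM. The counts are per gene, so the M1 and M2 splice forms of Pkm were not told apart.

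Enolase was nearly all Eno2 in these counts. Eno2, neuron-specific or gamma enolase, was at 277, 333, 495 and 629 CPM. Eno1, the ubiquitous alpha enolase, was at 4.07, 0.771, 7.93 and 15.5 CPM (86, 12, 101 and 237 counts). Eno2 exceeded Eno1 in every library, by a mean log2 ratio of 5.85 ± 0.65 per kb (57.8-fold), and its share of the enolase sum was 98.3 ± 0.83%. With a pseudocount of 2 in place of 0.5 CPM per kb the log2 ratio was 4.82. Eno3, the muscle form, had a mean of 0.75 CPM.

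The enolase ratio stands beside a difference in how much of each gene can be counted. Reads with more than 1 alignment (28.6% to 37.2% of a library) were left out of the deposited gene counts. Of the 50-base windows of the longest Eno1 transcript, 27.8% occurred in no other annotated gene, against 99.7% for Eno2. Eno1b, a copy on another chromosome, shared 70.5% of the Eno1 windows and was itself at 0.47 to 1.57 CPM. The part that such shared sequence had in the Eno1 count was not tested. Eno1 lies on chromosome 4 (150236721 to 150248879, GRCm38, plus strand) and Eno2 on chromosome 6 (124760053 to 124769673, minus strand). Their coding sequences, both 1305 bases, were identical at 980 positions (75.1%). The first 90 coding bases are shown to make that visible, from GENCODE M21 transcripts, 5′ to 3′, with capitals at the 19 positions where the genes differ:
Eno1: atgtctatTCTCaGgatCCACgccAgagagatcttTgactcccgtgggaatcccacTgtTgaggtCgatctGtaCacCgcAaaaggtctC
Eno2: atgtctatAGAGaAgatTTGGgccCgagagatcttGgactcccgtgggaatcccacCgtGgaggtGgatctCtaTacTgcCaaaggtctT

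Windows shared with another annotated gene, a copy elsewhere or a gene that overlaps in place, were more common for the glycolytic than for the mitochondrial genes. Unique windows were under 50% in 3 of the 31 genes, Gapdh (17.5%), Eno1 and Pgk1 (32.0%), and under 90% in 12. Among the 12, Pfkp and Pdha1 owed this to an overlapping gene, with 0% and 0.46% of windows shared elsewhere. At 99% or more were 16 genes, among them Mdh1, Mdh2, Dlat, Dld, Ogdh and all 3 Idh3 genes. The median was 83.1% over the 16 glycolytic genes and 100% over the 14 mitochondrial ones, beside 99.98% over the genes at 1 CPM in all 4 libraries. Gapdh (chromosome 6, 125161715 to 125166467, minus strand) shared windows with 222 other genes, 213 of them annotated pseudogenes. The processed pseudogene Gm7336 on chromosome 7 carried all 1002 coding bases of Gapdh without a difference, of which the first 90 are:
Gapdh: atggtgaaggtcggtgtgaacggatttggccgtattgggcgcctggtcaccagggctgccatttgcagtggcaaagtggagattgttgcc
A fragment that lies within this stretch alone cannot be assigned to either gene. Gapdh nevertheless had the highest level of the 31. Counts of Gapdh, Pgk1, Eno1, Pgam1 (58.5% unique) and Pkm (65.6%) are uncertain for this reason, and so are comparisons of their levels with those of other genes.

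Lactate dehydrogenase tetramers mix the A subunit (Ldha) and the B subunit (Ldhb), the form that favours the conversion of lactate to pyruvate. Ldhb was at 410, 422, 218 and 363 CPM and Ldha at 101, 126, 167 and 119. Replicate 3 was the lowest for Ldhb and the highest for Ldha. Per kb, Ldhb held 84.3 ± 7.34% of the sum, from 73.4% in replicate 3 to 89.6% in replicate 1. The log2 ratio of Ldhb to Ldha was 3.08, 2.80, 1.46 and 2.66, with a mean of 2.50 ± 0.72 (5.66-fold), and without division by length it was 1.44. The testis form Ldhc was at 0 counts in all 4 libraries, which allows up to 0.142 to 0.236 CPM (3 counts, covering counting error only). The coding sequences of Ldha (999 bases) and Ldhb (1005) were identical at 71.7% of aligned positions. Their best matching ungapped stretch of 90 bases (from GENCODE M21 transcripts, 5′ to 3′) is shown because even there 14 bases differ, marked by capitals:
Ldha: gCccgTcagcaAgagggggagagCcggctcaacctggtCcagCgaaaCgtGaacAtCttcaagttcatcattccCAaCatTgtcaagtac
Ldhb: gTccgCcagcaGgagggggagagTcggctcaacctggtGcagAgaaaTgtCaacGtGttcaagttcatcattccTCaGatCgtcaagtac
Copies elsewhere held 27.0% of the Ldhb windows (the pseudogene Gm5514) and 16.7% of the Ldha windows (14 pseudogenes).

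The 4 genes of the pyruvate dehydrogenase complex kept close proportions to each other. Pdha1 and Pdhb encode the alpha and beta subunits of the E1 decarboxylase, Dlat the E2 acetyltransferase and Dld the E3 dehydrogenase, which other complexes share. Dlat was at 266, 244, 168 and 200 CPM, Dld at 162, 175, 122 and 123, Pdhb at 133, 123, 85.6 and 121, and Pdha1 at 74.0, 77.9, 59.5 and 46.7. All 4 genes were lower in replicates 3 and 4 than in replicates 1 and 2 on this scale, as were 23.4% of all tested genes when scaled by effective library size. With Rn45s left out of the totals this held for Dlat and Dld only. Pdhb was then at 135, 125, 113 and 133 CPM and Pdha1 at 75.2, 79.2, 78.5 and 51.5, and both overlapped between the pairs. Per kb the shares of the sum of these 4 genes were 34.0 ± 1.36% for Dlat, 30.02 ± 1.72% for Dld, 22.8 ± 2.55% for Pdhb and 13.1 ± 1.90% for Pdha1. The SDs stayed under 3 percentage points, although the Pdha1 share ran from 10.6% in replicate 4 to 15.1% in replicate 3. Although the E1 subunits pair one to one in the enzyme, Pdhb exceeded Pdha1 in 4 of 4 libraries (log2 ratio 0.78 ± 0.36), and by 1.74 per kb of the longest transcript. Per kb of merged exon that ratio ran from 0.47 in replicate 3 to 1.29 in replicate 4. Pdha1 overlaps Map3k15, and 30.3% of the Pdhb windows had a copy in the pseudogene Gm6123.

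In the citric acid cycle, Cs, which makes citrate, was at 191, 261, 227 and 333 CPM. Isocitrate dehydrogenase 3 is the NAD-dependent and rate-setting form, built of an alpha subunit (Idh3a) with beta (Idh3b) and gamma (Idh3g) partners. Idh3b had the smallest coefficient of variation of the 31 genes on this scale (6.83%, and 15.9% with Rn45s left out of the totals, where Sucla2 had the smallest at 2.03%), at 130, 132, 138 and 151 CPM, while Idh3a was at 128, 89.5, 117 and 101 and Idh3g at 75.7, 139, 104 and 142. Both partner subunits exceeded the catalytic alpha subunit per kb in 4 of 4 libraries, Idh3b by a log2 ratio of 0.90 ± 0.26 and Idh3g by 0.95 ± 0.63. Without division by length these ratios were 0.35 and 0.05. Of the enzymes outside the NAD-dependent complex, mitochondrial Idh2 had a mean of 1.48 CPM and cytosolic Idh1 was at 2.44 CPM in replicate 2 and 46.7 CPM in replicate 3, the lowest and the highest.

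The oxoglutarate dehydrogenase complex turns 2-oxoglutarate into succinyl-CoA and shares Dld with the pyruvate dehydrogenase complex. Ogdh, its E1 component, was at 344, 359, 287 and 436 CPM. Dlst, its E2 component, was at 59.4, 119, 53.5 and 60.5 CPM, with replicate 2 alone high. Dlst stayed below Ogdh in 4 of 4 libraries (log2 ratio -3.07 ± 0.51). Dlst has 9559 bases of annotated exon, and per kb of the longest transcript the log2 ratio was -1.75. Succinyl-CoA ligase pairs the alpha subunit Suclg1 with an ATP-forming (Sucla2) or a GTP-forming (Suclg2) beta subunit. Sucla2 was at 125, 121, 92.8 and 115 CPM, and Suclg2 at 15.4, 1.48, 15.6 and 1.37. The ATP-forming subunit exceeded the GTP-forming one in 4 of 4 libraries (log2 ratio 4.03 ± 1.38), and the range of that ratio, 2.62 to 5.23, came from Suclg2. The shared subunit Suclg1 was at 17.0, 44.6, 54.7 and 19.1 CPM. Per kb it lay below Sucla2 in 4 of 4 libraries (log2 ratio of Sucla2 to Suclg1 2.03 ± 0.93). Fh1, fumarase, was at 67.4, 90.8, 53.8 and 66.0 CPM.

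The malate dehydrogenases differed between libraries in opposite directions. Mdh1 (chromosome 11, 21556787 to 21572367, minus strand), the cytosolic form that works in the malate-aspartate shuttle, was at 717, 746, 453 and 483 CPM. Mdh2 (chromosome 5, 135778480 to 135790398, plus strand), the mitochondrial form of the cycle, was at 135, 194, 363 and 291 CPM. Mdh1 was lower and Mdh2 higher in both replicates 3 and 4 than in both replicates 1 and 2. Scaled by effective library size, 23.4% of all tested genes were lower and 24.3% higher in this way. The log2 ratio of Mdh1 to Mdh2 was 2.86, 2.41, 0.79 and 1.20, above 0 in 4 of 4 libraries with a mean of 1.81 ± 0.98, under 2 SD. Per kb of the longest transcript (2122 bases for Mdh1 and 1456 for Mdh2) the mean was 0.80, and Mdh1 lay below Mdh2 in replicate 3. All 50-base windows of both genes were unique.

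**Figure D2:**
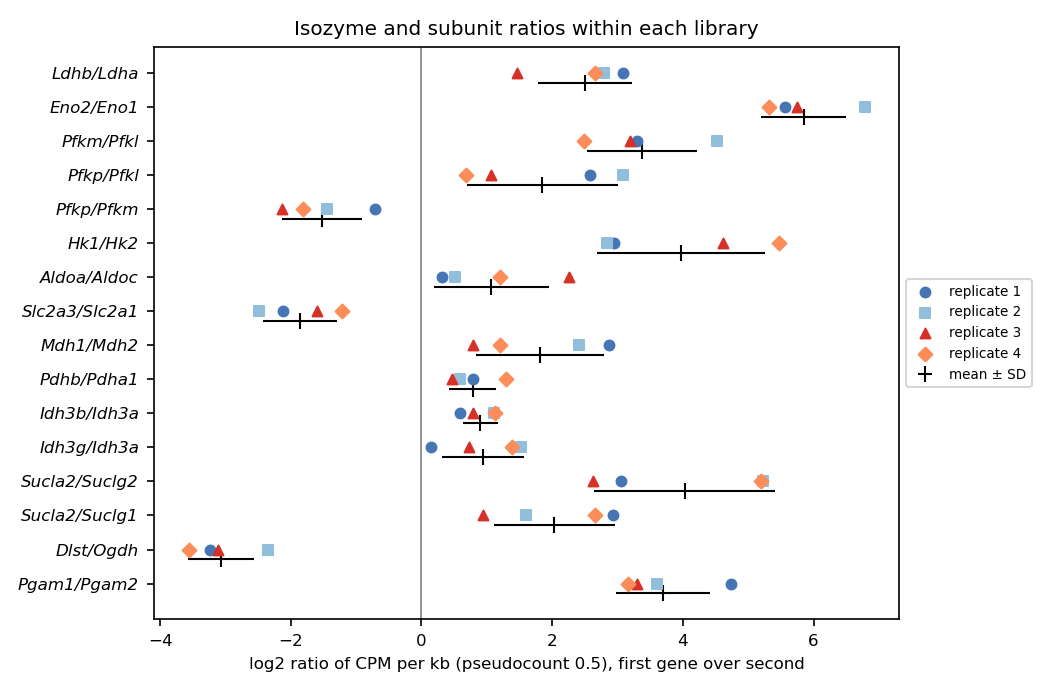
Log2 ratio of CPM per kb for 16 pairs of isozymes or subunits in each library, with the mean ± SD under the points. All 4 points of each pair lie on 1 side of 0. The points of Ldhb/Ldha, Mdh1/Mdh2, Pfkm/Pfkl, Pfkp/Pfkl, Pfkp/Pfkm and Pgam1/Pgam2 are lower in replicates 3 and 4 than in replicates 1 and 2. Those of Hk1/Hk2, Aldoa/Aldoc and Slc2a3/Slc2a1 are higher, and the remaining pairs overlap.

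Of the 16 gene pairs compared per kb of merged exon, all 16 had the same direction in 4 of 4 libraries, and 12 had a mean over 2 SD. This depended on the length for some pairs. Without division by length the mean log2 ratio of Pfkp to Pfkm was 0.43. Idh3g then lay below Idh3a in replicate 1 (75.7 against 128 CPM) and replicate 3 (104 against 117 CPM). With the longest transcript as length, Mdh1 lay below Mdh2 in replicate 3. Per kb of merged exon, the exact permutation test over sign flips of the 4 values (two-sided) gave p = 0.125 for each pair. It was also 0.125 after Benjamini-Hochberg adjustment over the 16. This is the smallest p that 4 libraries allow, so no ratio could pass 0.05. Hk1 exceeded Hk2 by a log2 ratio of 3.97 ± 1.29, and Pfkm exceeded Pfkl by 3.38 ± 0.85 and Pfkp exceeded Pfkl by 1.85 ± 1.16.

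Of 60 other genes of these pathways, listed by name, 38 were at 1 CPM or more in all 4 libraries, and 4 (Fbp2, Ldhc, Pck1 and Pgk2) were at 0 counts in all. Highest among them was Got1, the cytosolic transaminase of the malate-aspartate shuttle, at 608, 705, 299 and 382 CPM. Like Mdh1, its partner in the shuttle, it was lower in replicates 3 and 4. Its mitochondrial counterpart Got2 was at 17.6, 10.6, 75.4 and 68.3 CPM, like Mdh2 higher in both later libraries, although only 52.8% of the Got2 windows were unique. Of all tested genes, 23.4% were lower and 24.3% higher in both later libraries when scaled by effective library size. Aralar (Slc25a12), the aspartate-glutamate carrier of neurons, was at 291 ± 76.3 CPM, and its relative Slc25a13 at 1.67 ± 2.12. Neither separated replicates 1 and 2 from replicates 3 and 4. Of the cycle enzymes outside the 31, Sdha, a subunit of succinate dehydrogenase, was at 478 ± 79.8 CPM. Pyruvate dehydrogenase is inhibited by kinases and activated by phosphatases, and of these Pdk2 stood highest at 146 ± 18.1 CPM among the kinases and Pdp1 at 87.4 ± 7.16 among the phosphatases. The mitochondrial pyruvate carrier genes Mpc2 and Mpc1 were at 42.6 ± 6.89 and 3.42 ± 1.49 CPM. Monocarboxylate transporters, which carry lactate, were low, with Slc16a1 at 16.1, 37.0, 2.43 and 10.8 CPM, Slc16a7 at 19.5, 11.1, 4.398 and 21.7, and Slc16a3 at 0 counts in 3 of 4 libraries. Of Pfkfb genes, which control phosphofructokinase, Pfkfb2 was highest at 49.7 ± 21.8 CPM and Pfkfb1 was at 0 counts in 3 of 4 libraries. Of the gluconeogenic genes, Fbp1 had 4 counts in 1 library and none in the others, Pck1 and Fbp2 had none in any, the mitochondrial Pck2 was at 12.2 ± 7.05 CPM and Pcx, pyruvate carboxylase, at 8.14 ± 7.73.

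The labels number replicates 1 and 2 as libraries 1666 and 1667, called the first pair here. Replicates 3 and 4 carry the numbers 2469 and 2470 and are called the second pair. The title of the last library calls it replicate 4 while its description ends in a label of replicate 3, and the title was followed here, so which of these 2 libraries is which replicate rests on the titles. The spread of the 31 genes followed these pairs in part. The labels name no batch. What follows sets 2 untreated libraries against 2 others of the same group. The 16 glycolytic genes had a median log2 difference of 0.82 (second pair minus first), with 13 above 0 and 3 below. The 14 mitochondrial genes had a median of -0.10, with 7 above and 7 below, and all 4 pyruvate dehydrogenase genes were below 0. Over the genes at 1 CPM in all 4 libraries the median was -0.08, and 49.0% of all tested genes were above 0. None of the 31 genes passed the test (edgeR quasi-likelihood test, adjusted p under 0.05), where 1.27% of 13905 tested genes did (0.712% higher and 0.554% lower in the second pair). At an unadjusted p under 0.05 were 7 of 31, beside 16.8% of all tested genes, and DESeq2 called 3 of 31, beside 9.49%.

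The 7 genes with the smallest p were, apart from Mdh2, all glycolytic. Pkm had a log2 difference of 1.11 (SE 0.31, edgeR adjusted p = 0.0907) and was called by DESeq2 (adjusted p = 0.012), in edgeR without a filter on low counts and in edgeR on genes at 1 CPM in all 4 libraries. Pfkl had 2.41 (SE 0.72, edgeR adjusted p = 0.11, DESeq2 adjusted p = 0.00734) and Aldoa 0.95 (SE 0.31, edgeR adjusted p = 0.137, DESeq2 adjusted p = 0.0419). Eno2 had 0.89, Gpi1 0.90, Hk1 1.17 and Mdh2 1.02, with edgeR adjusted p between 0.166 and 0.206. Hk1 depended on the library left out, where each fit leaves 1 library in a pair. Its log2 difference was 0.71 without replicate 1, 1.83 without replicate 2, 1.46 without replicate 3 and 0.79 without replicate 4. With the GC offset described below the log2 difference of Hk1 was 0.40. Among genes below 0, Mdh1 had -0.63 (SE 0.30, edgeR adjusted p = 0.308), Dlst -0.64, Ldhb -0.53 and Pgk1 -0.45. Scaled by effective library size, the pairs did not overlap in 23 of the 31 genes, 13 higher and 10 lower in the second pair, beside 47.7% of all tested genes (24.3% higher and 23.4% lower). With Rn45s left out of the totals instead, 17 were higher (29.9% of all tested genes) and 4 lower (17.5%), the 4 being Ldhb, Dlat, Dld and Mdh1. Of the 13 higher by effective library size, 11 were glycolytic. The 60 other pathway genes gave no edgeR call among 48 tested (7 at an unadjusted p under 0.05, 3 called by DESeq2), and their median was 0.14. Of the 3, Bpgm (log2 difference -1.62) and Got1 (-0.94) were lower in the second pair and Got2 (2.37) higher. With the GC offset Bpgm was at -1.56.

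**Figure D3:**
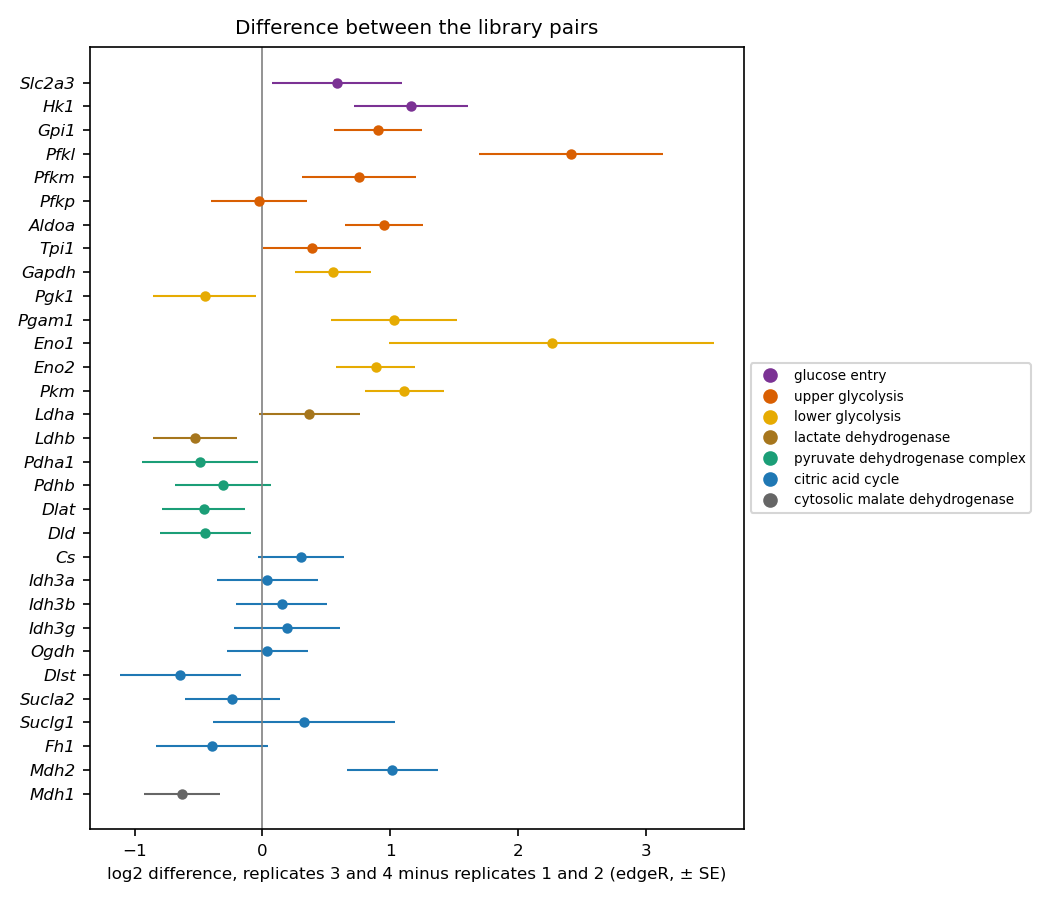
Log2 difference of each gene between replicates 3 and 4 and replicates 1 and 2 from edgeR, with bars of 1 SE, coloured by role. Most glycolytic genes lie above 0, with Pfkl at 2.41 and Eno1 at 2.26, the 4 pyruvate dehydrogenase genes lie below 0, and no gene passed the adjusted threshold.

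Base composition moved with this difference. Across the 31 genes the log2 difference correlated with the GC content of the longest coding transcript at r = 0.76 (Pearson; Spearman 0.79), and across all 12888 tested genes with a transcript at 0.33 (0.38). These are correlations across genes of the same 4 libraries, and genes are not independent replicates. The glycolytic genes had a median GC content of 54.1% and the mitochondrial ones 48.9%, with Pkm at 57.7%, Mdh2 at 55.4%, Mdh1 at 45.7% and Dld at 40.6%. Over all tested genes the median log2 difference was -0.42 below 44% GC and 0.98 at 56% or more. The genes of the 31 in these bins had medians of -0.34 (2 genes) and 1.14 (6 genes). Between, the medians were -0.43 (6 genes) against -0.35 over all tested genes at 44 to 48% GC. They were 0.25 (8 genes) against -0.14 at 48 to 52%, and 0.76 (9 genes) against 0.36 at 52 to 56%. A fit with a GC-dependent offset for each library was added after the data were seen. In it the glycolytic median was 0.23 and the mitochondrial one -0.06, beside -0.10 over the genes at 1 CPM in all 4 libraries. Called were 0 of 31 genes (0.349% of all genes). In that fit Pkm had a log2 difference of 0.17, Aldoa 0.12, Mdh2 0.38, Mdh1 -0.33 and Pfkl 1.56, and Gapdh turned from 0.55 to -0.25.

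**Figure D4:**
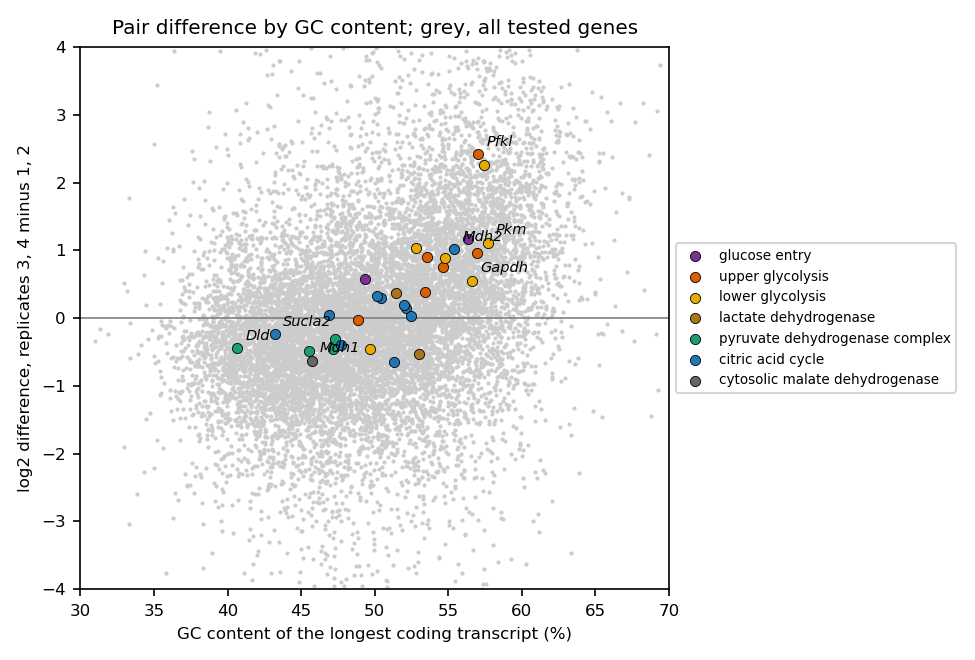
Log2 difference between the library pairs against GC content of the longest coding transcript in percent, for all tested genes (grey; 396 of 12888 lie outside the axes) and the 31 genes coloured by role. The GC-rich genes Pkm and Pfkl lie above 0 and the GC-poor Dld and Mdh1 below, among the grey points of like GC content.

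Cell type markers differed between the pairs too. The 6 cerebellar granule cell genes summed to 537 and 1243 CPM in the first pair and to 150 and 243 in the second, and 2 of them (Cbln3 and Neurod1) passed the test downward. The 5 Purkinje cell genes summed to 1463 and 2469 against 731 and 700 CPM, with 2 called downward (Car8 and Itpr1). Itpr1 alone was at 949 and 1706 against 357 and 430 CPM. The list was not uniform: Pcp2 (log2 difference 1.85) and Calb1 (0.57) were above 0 and Pvalb (-0.93) below, none of them called. The 8 neuronal genes, which include Eno2, summed to 21361 to 24842 against 11250 to 12020 CPM, most of it Snap25, with Nefm called downward. Their median log2 difference was -0.19, with Snap25 at -1.17, Nefm at -2.56, Nefl at -0.49 and Stmn2 at -0.33. Syt1 (-0.02) and Rbfox3 (-0.05) lay near 0, and Map2 (0.28) and Eno2 (0.89) above it. The 4 mural genes summed to 46.1 to 68.1 against 108 to 113 CPM. The sum of the 6 endothelial genes went the other way, from 164 to 247 in the first pair to 117 to 141 CPM in the second. It overlapped with Rn45s left out of the totals (167 and 251 against 186 and 129). Slc2a1 held much of this sum, at 81.3 and 127 against 65.2 and 90.04 CPM. This list was not uniform either: Cldn5 (log2 difference 1.87) and Ly6c1 (0.74) were above 0. Slc2a1 (-0.43), Flt1 (-0.92), Pecam1 (-1.97) and Tek (-2.29) were below, and none was called. The sums of astrocyte, oligodendrocyte, oligodendrocyte precursor, microglia (9.26 to 55.6 CPM) and red blood cell genes (0.579 to 8.75 CPM) overlapped between the pairs. Of the 4 ependymal and choroid plexus genes Folr1 was at 0 counts in all libraries, while the sum reached 127 CPM in replicate 4 through Ttr. The part of these cells in the enzyme levels was not tested.

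Measured beside complex I, the first enzyme of the respiratory chain, the pathway stood at a like level. The median log2 (CPM per kb + 0.5) of 36 complex I subunit genes was 5.07 ± 0.26 (SD, n = 4), that of the glycolytic genes 5.18 ± 0.34 and that of the mitochondrial genes 5.01 ± 0.14, beside 2.75 ± 0.09 over genes at 1 CPM in all 4 libraries. No test of these lists was made. Glycolytic minus mitochondrial medians were -0.31, -0.01, 0.65 and 0.36 in replicates 1 to 4, a mean of 0.17 ± 0.42 that is within its spread. The complex I genes had a median pair difference of 0.19, with 21 of 36 above 0. Apart from Eno1, the 30 genes varied less between libraries than genes at large, with a median SD of log2 CPM of 0.39 against 0.69 (0.46 against 0.69 with Rn45s left out of the totals), a description over genes of unequal abundance.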

How the data were processed

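Ribosome-bound RNA was measured in 4 immunopurified libraries. Each deposited file gave counts of reads for gene symbols, not normalized, from STAR 2.0.0e and HTSeq on mm10, per the submitters' processing notes. Which annotation and strand setting HTSeq used is not stated in these sources, so overlapping and antisense genes could not be told apart. The 5 HTSeq summary rows and the row unknown (0 counts) were left out. They held reads with more than 1 alignment (28.6% to 37.2% of a library), reads outside features (24.0% to 30.1%) and ambiguous reads (1.25% to 2.07%). Replicates 1 to 4 had gene totals of 21140265, 15556918, 12731825 and 15315942, and 1 count was worth 0.0473 to 0.0785 CPM. Floors cover counting error only.

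CPM used these totals. Lengths, GC content and 50-base windows came from GENCODE M21 (GRCm38, the assembly of mm10) by symbol. Ratios used a pseudocount of 0.5 CPM per kb. Library pairs were compared on the 31735 shared rows with edgeR 4.0.16 (quasi-likelihood test after TMM scaling and filterByExpr). Benjamini-Hochberg adjustment ran over every gene tested, with a threshold of 0.05. A run on simulated data planted only changes larger than that of any of the 31 genes, so it does not bear on smaller differences. Alternatives to these settings were DESeq2 1.42.0, other scalings, filters, lengths and pseudocounts, and leaving out replicates. All 31 genes were named, with their partners in a pair. Other pathway genes were named where they were highest or lowest in their role or were called by DESeq2. Marker genes or sequence copies were named only beside a result. The genes and lists were chosen with earlier results of these data known. Some other pathway genes are not reported here.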

Additional observations from a re-analysis of the deposited data

Results flagged for a closer look

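Of 51 sets of 4 values checked for a library far from the others, 2 were set apart, where chance flags about 1 in 20 and 7.57% of all genes at 1 CPM in every library were. Tpi1 was at 92.2 CPM in replicate 2 and at 159 to 163 CPM in the other libraries. Dlst was at 119 CPM in replicate 2 and at 53.5 to 60.5 CPM in the others. The cause was not tested.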

How the results depend on the processing

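Depth limits the lowest genes most, such as Eno1 with 12 to 237 counts. The count of called genes over the whole table was 176 and became 875 without a filter on low counts, 525 among genes at 1 CPM in all 4 libraries, 1268 by DESeq2, 45 with the GC offset (added after seeing the data) and 389 to 699 without 1 replicate. Of the 31 genes, 0 were called, and 1 (Pkm) without a filter, 1 (Pkm) at 1 CPM in all 4 libraries and 3 (Aldoa, Pfkl and Pkm) by DESeq2. The genes of the 31 whose pairs did not overlap went from 13 higher and 10 lower to 17 and 4 with Rn45s left out of the totals (added after seeing the data). Without division by length, log2 ratios were 1.44 for Ldhb to Ldha, 3.07 for Pfkp to Pfkl, 0.43 for Pfkp to Pfkm (reversed), 5.47 for Hk1 to Hk2, -0.88 for Slc2a3 to Slc2a1, 0.35 for Idh3b and 0.052 for Idh3g to Idh3a, -2.34 for Dlst to Ogdh and 4.83 for Pgam1 to Pgam2, and the list medians were 7.13 (glycolytic) and 6.94 (mitochondrial). With the longest transcript, ratios were -0.089 for Pfkp to Pfkm, -1.14 for Slc2a3 to Slc2a1, 0.80 for Mdh1 to Mdh2, 1.74 for Pdhb to Pdha1 and -1.75 for Dlst to Ogdh, and medians 5.90 and 5.79. With a pseudocount of 2, Eno2 to Eno1 was 4.82 and Pgam1 to Pgam2 2.87. The mitochondrial median was 5.15 without Rn45s and 4.82 as a mean. Log2 differences between the pairs that changed sign, none of them called, were those of Pfkp (0.023 at 1 CPM in all 4 libraries, 0.075 with the GC offset) and, with the GC offset, Gapdh (-0.25), Idh3b (-0.050), Idh3g (-0.0083), Ogdh (-0.21) and Sucla2 (0.11). Without 1 replicate, the sign also depended on the replicate for Pfkp (-0.27 to 0.26), Ldha (-0.030 to 0.67), Idh3a (-0.20 to 0.28), Idh3g (-0.20 to 0.74), Ogdh (-0.17 to 0.21) and Suclg1 (-0.80 to 1.23). The remaining ratios kept their sign and stayed within 1 SD. The causes were not tested.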
